A study of Mus musculus with 7 samples.

Results

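Cathepsins are the proteases with which microglia, the resident macrophages of the brain, degrade what they take up, and cystatins are proteins that block them. The RNA-seq counts were examined here for 10 such genes, named by symbol: the 7 cathepsin genes Ctsb, Ctsd, Ctsl, Ctss, Ctsz, Ctsc and Ctsh and the 3 cystatin genes Cst3, Cst7 and Cstb, out of 55341 gene names in the table. Microglia had been sorted as CD11b+CD45low cells from the cortex of 5xFAD mice on a C57BL/6 background, 4 weeks after a suspension of wild-type embryonic cortical cells was injected there. The inside graft group held 3 libraries from the excised transplant, and the outside graft group held 4 libraries from small pieces of host cortex close to it. The labels give an age of 14 weeks for all 7 libraries. All recipients carried the 5xFAD transgenes, human APP with the Swedish, Florida and London mutations and mutated human PS1, which the neuron-specific Thy1 promoter drives, so both groups came from mice that deposit amyloid beta (Aβ) and neither is a non-transgenic control. The grafted cells came from wild-type C57BL/6 embryos, and the study used female mice only. The sources used here do not say whether libraries of a group came from separate mice, so the p-values measure the spread between these libraries, which may be technical.

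Most cathepsins are cysteine proteases that are made as inactive precursors and mature in the acid lumen of the lysosome, where they cut engulfed proteins into peptides. Cathepsin D differs, being an aspartic protease that cystatins do not inhibit. Cystatin C, the product of Cst3, is secreted and binds cysteine cathepsins tightly, cystatin F from Cst7 is carried to lysosomes and holds back cathepsin C and cathepsin L in particular, and stefin B from Cstb acts in the cytosol. In microglia, Cst7 and several cathepsin genes are known as part of the programme that accompanies contact with Aβ plaques. The comparison of the groups therefore addresses how much of each protease and inhibitor transcript microglia inside wild-type tissue carried, and how the transcripts of proteases stood to those of inhibitors.

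The libraries held 18644807 to 25882122 counted reads, and all 10 genes were among the 15257 that passed the filter on low counts. The genes that define the sort, Itgam (CD11b) and Ptprc (CD45), were at 336 ± 21.8 and 545 ± 19.5 CPM (reads of a gene per library, scaled to the library's total; SD, n = 3) inside and 325 ± 58.7 and 425 ± 56.8 CPM (SD, n = 4) outside the graft. All 12 listed microglia markers, P2ry12 and Tmem119 among them, were detected in every library and summed to between 53000 and 68730 CPM. Markers of other cells moved with the groups. The 9 neutrophil genes (S100a8, S100a9 and others) summed to 7522, 795.9 and 15420 CPM in inside grafts 1, 2 and 3 and to at most 360.5 CPM outside, and 8 of 8 tested were higher inside with 0 past an adjusted P of 0.05 in either test. The 10 monocyte genes summed to 99.3 to 1393 CPM inside and 19.1 to 41.0 CPM outside. Chil3 supplied most of each inside sum, at 587, 67.6 and 1189 CPM in inside grafts 1 to 3 and at most 15.0 CPM outside. Of the 10, 3 stood apart, with every inside library above every outside one, as 5.65% of all tested genes did. The 8 proliferation genes summed to 90.0 to 134.6 CPM inside and 9.94 to 39.4 CPM outside. All 8 proliferation genes stood apart in the same way, a pattern of 5.65% of all tested genes. VoomWithQualityWeights called 2 of them (Top2a and Birc5, adjusted P = 0.0316 and 0.0482), where 0.433% of all genes were called higher, and edgeR called 0. Mpo, a granule gene of immature neutrophils, was at 0 in inside graft 2 and in every outside graft library. Retnlg and Cxcr2 were also at 0 in inside graft 2. Other neutrophil genes of the list were present there, with Ngp, Ltf and Camp at 182, 148 and 79.4 CPM, above every outside graft library. The border-associated macrophage genes summed to 395.7 to 651.2 CPM inside and 533.4 to 632.8 CPM outside, a sum that Stab1 dominated (477 CPM inside and 580 CPM outside). The other 7 of the 8 tested were higher inside, among them Mrc1 (39.2 against 9.11 CPM) and Pf4 (10.6 against 0.418 CPM), with a list median of 3.5 on the log2 scale and 0 past the threshold in either test. In such bulk samples, more cells of a type and more RNA per cell cannot be told apart.

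The 10 genes lie on 7 chromosomes of GRCm38 and all code for proteins. Cst3 (chr2:148871722-148875692), Cst7 (chr2:150570415-150578944) and Ctsz (chr2:174427493-174439039) share chromosome 2, and Ctsc (chr7:88278085-88310888) and Ctsd (chr7:142375911-142388038) share chromosome 7. Ctsb is at chr14:63122462-63145923, Ctsl at chr13:64359337-64370890, Ctss at chr3:95526786-95556403, Ctsh at chr9:90054152-90076089 and Cstb at chr10:78425669-78427622. Counts covered exons only and ignored strand. Exons of Ctsb shared 774 bases with the neighbouring gene Fdft1, which itself drew 75 to 379 reads per library, against 72565 to 169350 for Ctsb. Exons of Ctsd shared 808 bases with Gm49369, which drew 4 to 19 reads. Those of Ctsl shared 1742 bases with Gm47123 and Gm49230, both listed at 0 in every library. Those of Ctsz shared 10 bases with Nelfcd. No exon of the other 6 genes overlapped another gene. The shared part was 34.37% of the exon length of Ctsd, 26.85% for Ctsl and 12.79% for Ctsb. A read in shared bases may have been counted for no gene. The counts of the neighbours therefore do not show how many reads the shared bases drew. Such losses would lower levels scaled to exon length, which includes the shared bases, and their size was not tested.

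RefSeq promoter windows on GRCm38.p6, 250 bases before to 50 after the annotated start site, were at hand for 7 of the 10 genes. The windows were searched on both strands for letters that regulators of macrophages and lysosomes are known to bind. The E-box CACGTG, core of the element read by the lysosomal regulator TFEB, was in 2 of the 7 windows (Ctsd and Ctsl) and in 7.15% of all 32851 windows, and its longer form TCACGTGA, which contains it, was in 1 (Ctsd) and in 0.974% of all. The PU.1 letters GAGGAAGT were in the windows of Ctss and Ctsc and in 3.2% of all. The AP-1-like letters TGANTCA, with N for any base, were in that of Cst7 and in 7.81% of all. The Cst7 match reads TGATTCA, whereas the usual AP-1 site has C or G at the centre, so it departs from that site. Stretches of 60 bases around 4 of these matches are given here because they show where the letters sit in genes whose levels follow. Each is written 5′ to 3′ on the gene's own strand with the match in capitals. They are minus-strand chr7:142387893-142387952 for Ctsd with TCACGTGA, minus-strand chr13:64370711-64370770 for Ctsl with CACGTG, plus-strand chr7:88277908-88277967 for Ctsc with the reverse complement of GAGGAAGT, and plus-strand chr2:150570356-150570415 for Cst7 with TGANTCA, ending on the start site.
Ctsd: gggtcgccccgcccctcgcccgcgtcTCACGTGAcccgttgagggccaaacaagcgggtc
Ctsl: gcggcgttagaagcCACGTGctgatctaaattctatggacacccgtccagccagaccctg
Ctsc: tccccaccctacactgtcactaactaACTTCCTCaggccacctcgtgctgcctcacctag
Cst7: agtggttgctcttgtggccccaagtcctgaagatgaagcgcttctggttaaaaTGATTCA
A match is a description of the sequence only. The Ctsd and Ctsl stretches lie before the RefSeq start sites of the windows but inside the gene spans given above, so the annotations differ there. Of the genes for the factors named, Spi1, which encodes PU.1, was at 270 CPM inside against 330 CPM outside (log2 fold change -0.29, adjusted P = 0.392, edgeR), and Tfeb differed by -0.08 on the log2 scale (adjusted P = 0.919).

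Several of these genes ranked near the top of the table. Cst3 had the most reads of any gene in all 7 libraries, and the 10 genes together took 6.94 ± 1.25% (SD, n = 3) of all counts inside and 6.43 ± 0.74% (SD, n = 4) outside the graft. Scaled to exon length and then to the library's total (TPM), the order of mean levels over the 7 libraries was Cst3 (79289), Ctss (18892), Ctsd (17615), Ctsz (5847), Ctsb (2412), Cst7 (931), Ctsl (871), Ctsh (681), Ctsc (475) and Cstb (375). Cst3, Ctsd and Ctsz each lay above the next gene in every pairing of libraries, as did Ctsh over Ctsc. Ctss and Ctsd did not keep their order: Ctss was above Ctsd in 5 of 7 libraries only. Cst7 was above Ctsl in 2 of 7 libraries. Ctsb was above Cst7 and Ctsl above Ctsh within each library, although their ranges overlapped across libraries. The place of Ctss, Ctsd, Ctsl and Cst7 also rested on the length used, since with the length of 1 coding transcript per gene in place of all merged exons Ctsd (12407 TPM) came before Ctss (12058 TPM) and Cst7 (595 TPM) came after Ctsl (1828), Ctsh (1207) and Ctsc (705).

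**Figure D1:**
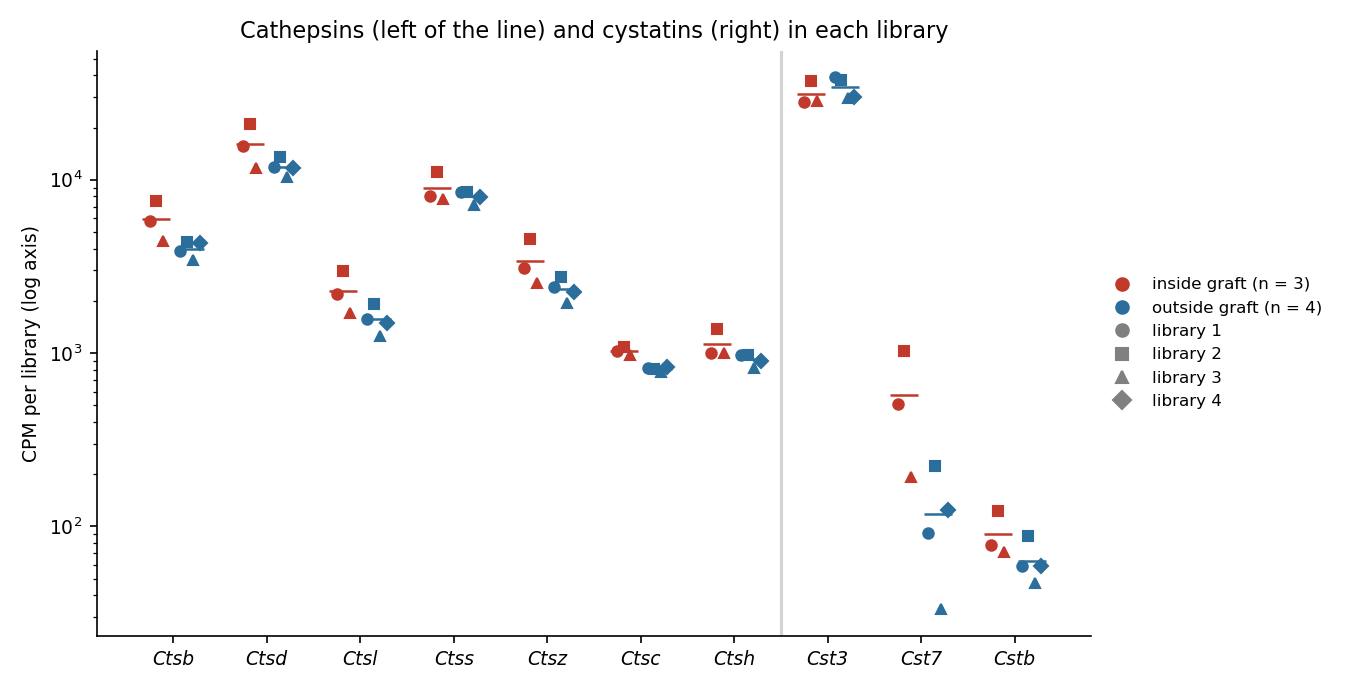
CPM (log axis) of each gene in each library, red for the 3 inside graft and blue for the 4 outside graft libraries, with the marker shape giving the library number and the short line the group mean. Inside graft 2 (red squares) is the highest point for every gene except Cst3, and outside graft 3 (blue triangles) the lowest for every gene except Cst3.

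All 7 cathepsin genes had a higher mean inside than outside the graft, by log2 fold changes of 0.15 (Ctss) to 0.57 (Ctsb), and none passed an adjusted P of 0.05 over all genes in edgeR's quasi-likelihood test or in voomWithQualityWeights, the test the study used. Among the inhibitors, Cst7 was higher inside by 2.29 on the log2 scale, Cstb by 0.51, and Cst3, the inhibitor that outweighs the others in abundance, differed by -0.12, again with none past the threshold. Across the table, edgeR called 15 of 15257 genes (0.0983%) and voomWithQualityWeights 75 (0.492%) at that threshold, and at an unadjusted P below 0.05 edgeR called 6 of the 10 genes, all higher inside, where 5.76% of all genes were called higher, and voomWithQualityWeights called 8 of 10, where 7.47% of all genes were. The edgeR log2 fold change was above 0 for 9 of the 10 genes and for 49.2% of all genes. Every inside graft library lay above every outside graft library for 3 of the 10 genes (Ctsb, Ctsc and Ctsh), a pattern that 5.65% of all tested genes showed. The median log2 fold change was 0.45 over the 7 cathepsins, 0.51 over the 3 cystatins and -0.0064 over all genes. The DESeq2 Wald test called 2 of the 10 (Ctsc and Ctsb), where it called 420 genes (2.75%).

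**Figure D2:**
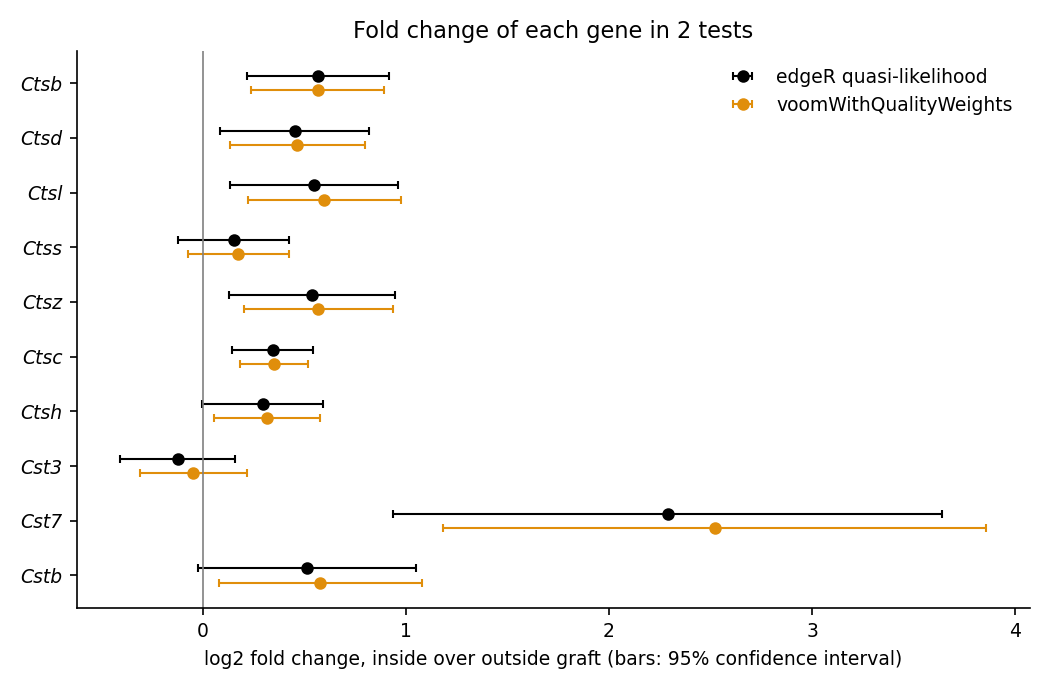
Log2 fold change of each gene, inside over outside graft, with its 95% confidence interval, from edgeR (black) and voomWithQualityWeights (orange), 3 against 4 libraries. Cst7 lies far to the right with the widest interval (0.94 to 3.64 in edgeR), the intervals of Ctss and Cst3 span 0 in both tests and those of Ctsh and Cstb in edgeR, and the other 5 cathepsin genes lie above 0.

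Ctsb encodes cathepsin B, an endo- and carboxypeptidase of the lysosome. It was at 5806, 7516 and 4434 CPM in inside grafts 1 to 3 and at 3872, 4360, 3444 and 4306 CPM in outside grafts 1 to 4. The lowest inside value exceeded the highest outside value by a small margin in CPM, while in TPM the groups overlapped (2219 inside graft 3 against 2307 outside graft 4). The edgeR log2 fold change was 0.57 (SE 0.157, 95% confidence interval 0.217 to 0.917, adjusted P = 0.206), and that of voomWithQualityWeights was 0.57 (adjusted P = 0.124). DESeq2 gave an adjusted P of 0.0219. Without inside graft 3, voomWithQualityWeights gave 0.74 with an adjusted P of 0.0474, in a fit that called 0.302% of genes, whereas without inside graft 2 the value was 0.36 in both tests (adjusted P = 0.414 in edgeR and 0.264 in voomWithQualityWeights).

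Ctsd, the gene of the aspartic protease cathepsin D, was at 15708, 21038 and 11722 CPM inside and 11775, 13435, 10314 and 11700 CPM outside the graft. Inside graft 3 sat among the outside values, so the groups overlapped, and the log2 fold change of 0.45 (95% confidence interval 0.087 to 0.818, adjusted P = 0.380, edgeR) rested on inside grafts 1 and 2. Without inside graft 2 it was 0.22.

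Ctsl and Ctsz followed the same order of libraries as each other. Ctsl, the gene of the endopeptidase cathepsin L, was at 2186, 2955 and 1704 CPM inside and 1571, 1919, 1262 and 1497 CPM outside. Ctsz, the gene of the carboxypeptidase cathepsin Z, was at 3087, 4551 and 2538 CPM inside and 2409, 2743, 1952 and 2241 CPM outside. In both, outside graft 2 exceeded inside graft 3, so the groups overlapped by this pair alone. Their edgeR log2 fold changes were 0.55 for Ctsl (SE 0.186, adjusted P = 0.330) and 0.54 for Ctsz (SE 0.184, adjusted P = 0.331). Without inside graft 2 they were 0.32 and 0.27.

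Ctsc, which encodes cathepsin C (dipeptidyl peptidase 1, the activator of granule serine proteases), had the smallest spread. It was at 1031, 1081 and 976 CPM inside and 816, 813, 779 and 832 CPM outside, so that the groups stood apart, as they also did in TPM. The log2 fold change was 0.35 in edgeR (SE 0.0895, 95% confidence interval 0.146 to 0.545, adjusted P = 0.167) and 0.35 in voomWithQualityWeights (adjusted P = 0.0663), and it stayed between 0.31 and 0.38 when each library was left out in turn. Its call depended on the test: DESeq2 gave an adjusted P of 0.0014 and voomWithQualityWeights without a filter on low counts 0.00993 (0.762% of genes called there).

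Ctsh, the gene of the aminopeptidase cathepsin H, was at 1002, 1380 and 1000.2 CPM inside and 978, 976, 816 and 905 CPM outside. The groups did not overlap, but inside grafts 1 and 3 lay just above outside grafts 1 and 2, and the log2 fold change of 0.30 had an interval of -0.0032 to 0.593 (adjusted P = 0.531, edgeR). Without inside graft 2 it was 0.12.

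Ctss, the cathepsin with the most transcripts next to Ctsd and a protease of antigen presentation, differed least. It was at 8080, 11014 and 7720 CPM inside and 8544, 8518, 7155 and 7950 CPM outside. Inside graft 2 stood above all other libraries while inside grafts 1 and 3 lay among the outside ones. The log2 fold change was 0.15 (95% confidence interval -0.120 to 0.425, adjusted P = 0.785, edgeR), and without inside graft 2 it was -0.03.

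Cst3 was at 28119, 37321 and 28413 CPM inside and 38945, 37822, 29410 and 30132 CPM outside. Outside grafts 1 and 2 and inside graft 2 formed the upper values, and the groups overlapped. The log2 fold change was -0.12 in edgeR (95% confidence interval -0.406 to 0.159, adjusted P = 0.848) and -0.05 in voomWithQualityWeights, where its sign turned when 1 of 3 libraries was left out, and against inside graft 2 alone the edgeR value was 0.14.

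Cst7 spanned the widest fold range of the 10 genes, from 829 reads in outside graft 3 to 23159 in inside graft 2. It was at 507, 1028 and 194 CPM in inside grafts 1, 2 and 3 and at 91.7, 222, 33.4 and 125 CPM in outside grafts 1 to 4. Inside grafts 1 and 2 were above all outside libraries, and inside graft 3 was below outside graft 2. The log2 fold change was 2.29 in edgeR (SE 0.607, 95% confidence interval 0.94 to 3.64, adjusted P = 0.179) and 2.52 in voomWithQualityWeights (95% confidence interval 1.18 to 3.86, adjusted P = 0.0989). It ran from 1.57 without inside graft 2 to 2.79 without outside graft 2 (edgeR). Its call varied with the filter on low counts, the test and a block on library number. Without a filter the adjusted P was 0.00212 in edgeR (1.24% of genes called there) and 0.146 in voomWithQualityWeights. With at least 10 counts required in every library it was 0.065 in edgeR and 0.0311 in voomWithQualityWeights (1.75% of genes called). Under the replicate block, which drops outside graft 4, it was 0.0046 in edgeR (0.289% called) and 8.29e-06 in voomWithQualityWeights (1.78% called). The sources do not state that same-numbered libraries are pairs.

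Cstb, the least abundant of the 10, was at 78.0, 122 and 70.8 CPM inside and 59.2, 88.4, 47.0 and 58.7 CPM outside. The groups overlapped through outside graft 2, and the log2 fold change was 0.51 (95% confidence interval -0.024 to 1.05, adjusted P = 0.550, edgeR), or 0.23 without inside graft 2.

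The 10 genes had much of their highest and lowest values in the same libraries, although the full order of the 7 libraries was identical only for Ctsl and Ctsz. Of the 10, 9 were highest in inside graft 2, Cst3 being the exception, and 9 were lowest in outside graft 3, again apart from Cst3, which was lowest in inside graft 1. Among the outside graft libraries alone, Cst7, Cstb, Ctsl, Ctsd, Ctsz and Ctsb were highest in outside graft 2. Relative to the mean of the outside libraries, inside graft 2 was higher by 0.84 (Ctsd) to 0.99 (Cstb) on the log2 scale for Ctsb, Ctsd, Ctsl, Ctsz and Cstb, by 0.42 to 0.59 for Ctsc, Ctss and Ctsh, by 3.42 for Cst7 and by 0.14 for Cst3. Inside graft 3 was higher by at most 0.27 for any gene other than Cst7, for which the difference was 1.01. All genes of a library share its depth and scaling, so these orders are not independent of one another.

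Inside graft 2, where the cathepsins and Cst7 were highest, had the lowest neutrophil sum (795.9 CPM) and the lowest monocyte sum (99.3 CPM) of the 3 inside graft libraries, and inside graft 3, where they were lowest within the group, had the highest (15420 and 1393 CPM). Compared with the outside graft by itself, inside graft 2 gave edgeR log2 fold changes of 0.91 for Ctsb, 0.84 for Ctsd, 0.92 for Ctsl, 0.97 for Ctsz and 3.13 for Cst7. This comparison was chosen after seeing the data and rests on the library in which these genes were highest, so the values are a description with no test. The summed microglia markers were lower in inside graft (53000 to 61710 CPM) than in outside graft libraries (61720 to 68730 CPM), with 12 of 12 genes lower and 0 past the threshold in either test. The part of other cells in the differences of the cathepsin and cystatin genes was not tested beyond these values.

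**Figure D3:**
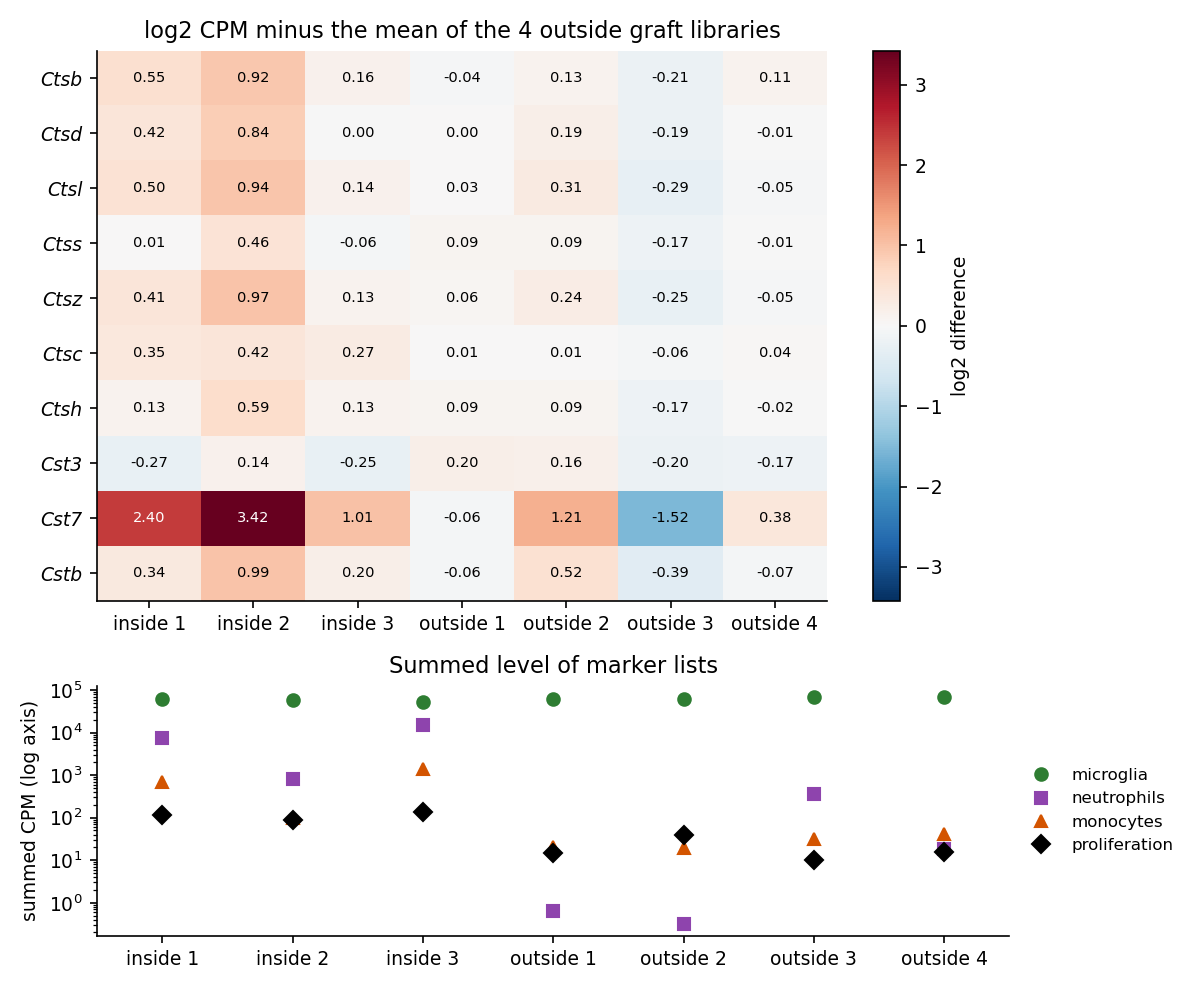
Top, log2 CPM of each gene minus its mean over the 4 outside graft libraries, per library, from blue (lower) to red (higher), with the value in each cell. Bottom, summed CPM (log axis) of the microglia, neutrophil, monocyte and proliferation markers in the same libraries. The column of inside graft 2 is the reddest for the cathepsins and Cst7 while its neutrophil and monocyte sums are the lowest of the inside graft libraries.

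The balance of proteases to inhibitors was taken as the log2 ratio of the summed TPM of the 6 cysteine cathepsins (all but Ctsd) to that of the 3 cystatins. It is a ratio of transcripts and measures neither protein nor activity. The ratio was -1.22, -1.19 and -1.37 in inside grafts 1 to 3 and -1.75, -1.66, -1.60 and -1.47 in outside grafts 1 to 4, so cystatin transcripts outnumbered those of cysteine cathepsins in every library and the groups did not overlap. The mean difference was 0.360, with SDs of 0.093 (n = 3) and 0.120 (n = 4). On the linear scale there were 0.418 ± 0.026 cathepsin transcripts per cystatin transcript inside and 0.326 ± 0.027 outside the graft. The gap between the nearest libraries, inside graft 3 and outside graft 4, was smaller than the range within either group. Both sides of the ratio contributed, since the summed cysteine cathepsins were at 31186 ± 5235 TPM inside and 27673 ± 1484 TPM outside, the summed cystatins at 74332 ± 8705 and 85291 ± 8794 TPM, and each sum overlapped between the groups.

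The ratio depended on how the genes were weighted. Because Cst3 made up 97.2% of cystatin TPM inside and 99.2% outside, the ratio was close to that against Cst3 alone (difference 0.388, groups apart). It was 0.419 with Ctsd added, 0.444 with CPM in place of TPM and 0.392 with the length of 1 coding transcript, with the groups apart in each. Against Cst7 alone the direction was opposite, with 4.25, 3.69 and 5.49 inside and 6.63, 5.41, 7.83 and 6.10 outside the graft, a difference of -2.02 with overlapping groups. Against Cstb alone the difference was -0.25, with overlap. With geometric means in place of sums on both sides, which gives each gene equal weight, it was -0.50, also with overlap. For the named targets of cystatin F, the log2 ratio to Cst7 differed inside by -1.94 for Ctsc and by -1.75 for Ctsl, again with overlapping groups. These differences came from Cst7 (log2 fold change 2.29, edgeR), since Ctsc (0.35) and Ctsl (0.55) were themselves higher inside by less.

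**Figure D4:**
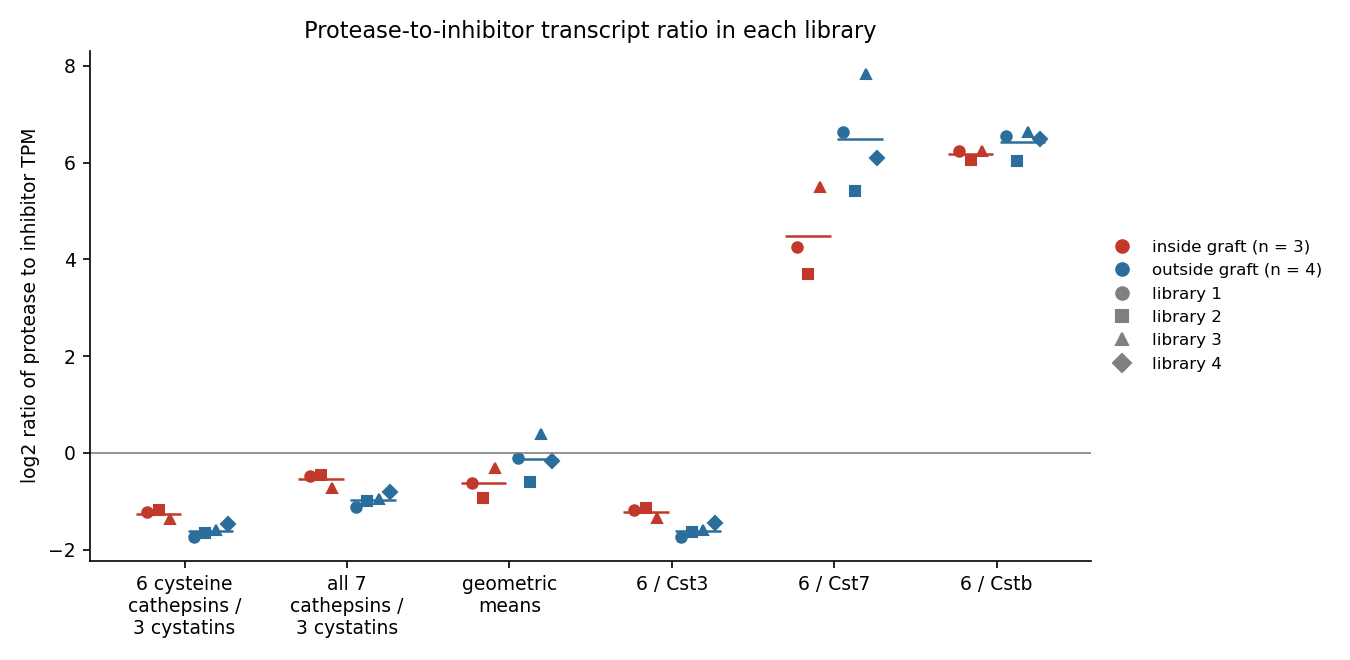
Log2 ratio of protease to inhibitor TPM in each library under 6 definitions, red for inside and blue for outside graft, with marker shape giving the library number and lines the group means. The inside libraries lie above the outside ones when Cst3 dominates the denominator and mostly below them against Cst7, where the means are 4.48 and 6.49.

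The make-up of each side also differed. Cst7 supplied 2.25%, 3.39% and 0.864% of cystatin TPM in inside grafts 1 to 3 and 0.301%, 0.743%, 0.145% and 0.526% outside, so that the groups stood apart, and the log2 ratio of Cst7 to Cst3 was higher inside by 2.40, also without overlap. The share of Ctss in the cysteine cathepsin TPM was 60.8%, 60.3% and 64.4% inside and 68.4%, 65.7%, 68.4% and 67.3% outside the graft, lower in each inside library than in any outside one. The log2 ratio of Ctsd to Cst3 was -1.73, -1.72 and -2.17 inside against -2.62, -2.39, -2.40 and -2.26 outside, a difference of 0.54 without overlap. These shares and ratios carry no test.

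Of the other cathepsin genes, 5 of 15 were tested and none passed an adjusted P of 0.05, while 8, among them Ctsj and Ctsm, were listed at 0 in all libraries. The most abundant was Ctsa, the gene of the serine carboxypeptidase that protects lysosomal glycosidases, at 2463, 3145 and 1947 CPM inside and 2066 to 2210 CPM outside (log2 fold change 0.25, adjusted P = 0.634, edgeR), again highest in inside graft 2. Ctsf and Ctso, cysteine cathepsin genes, were lower in every inside than in any outside library, at 409 against 493 CPM (log2 fold change -0.27, adjusted P = 0.403, edgeR) and 212 against 235 CPM (-0.15, adjusted P = 0.729). The share of all genes with that pattern is not given here. The low-level gene Ctsw stood apart the other way (3.97 against 1.46 CPM, 1.43, adjusted P = 0.739), as 5.65% of all tested genes did. Ctse was higher inside with overlap (10.5 against 3.58 CPM, 1.55, adjusted P = 0.417). These 4 genes were described after their values were seen. Ctsg, a serine protease of neutrophil granules, had 177 reads in inside graft 3 and 0 in every other library, where a count of 0 allows up to 0.118 to 0.16 CPM (3 counts, counting error only). Other cystatins were nearly absent: 0 of 15 in the table were tested, 12 were at 0 throughout, and Stfa1, the most abundant, had 30 reads in inside graft 1, 26 in inside graft 3 and 0 elsewhere. Of the other cathepsin inhibitors, 3 of 9 were tested and none passed, with Serpinb6a, a serpin, at 14.3 CPM inside and 8.79 CPM outside (log2 fold change 0.70, adjusted P = 0.338, edgeR).

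The genes that mature, sort and acidify showed no call. Of 10 genes for maturation and sorting, 0 passed in either test, 6 with a positive and 4 with a negative edgeR log2 fold change. Lgmn, whose product legumain processes cathepsins to their mature chains, was the most abundant, with a log2 fold change of -0.03 (95% confidence interval -0.213 to 0.155, adjusted P = 0.958, edgeR). Of 17 tested genes of the vacuolar ATPase, the proton pump of the lysosome, none passed, with a median log2 fold change of 0.07 and Atp6v0b, the most abundant, at 0.05 (adjusted P = 0.951, edgeR). None of 12 regulators of lysosomal and cathepsin genes passed, with a median of 0.05 and Spi1 the most abundant. Spi1 was at 240 to 295 CPM inside and 314 to 339 CPM outside (adjusted P = 0.392, edgeR). In the same list 3 low-level genes, named after their values were seen, stood apart higher inside, as 5.65% of all tested genes did. They were Ciita, the regulator of MHC class II genes (14.3 against 1.58 CPM, log2 fold change 3.16), Tfec (1.72 against 0.0805 CPM, 4.27) and Rragd (5.88 against 0.826 CPM, 2.82), with edgeR adjusted P values of 0.288, 0.290 and 0.366.

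Some genes on the substrate side of the cathepsins passed an adjusted P of 0.05 in voomWithQualityWeights, and none passed the 0.01 that the study used. Of the 10 listed, 6 were tested, and 4 were called higher inside by voomWithQualityWeights (background 0.433% called higher) and 0 by edgeR. In edgeR the same 4 had an unadjusted P below 0.05, where 5.76% of all genes were called higher inside. Cd74, the invariant chain that cathepsin S trims during antigen presentation, was at 833, 3660 and 3136 CPM inside and 429, 102, 325 and 183 CPM outside, a log2 fold change of 3.29 (SE 0.545, adjusted P = 0.0653 in edgeR and 0.0374 in voomWithQualityWeights). H2-Aa, H2-Ab1 and H2-Eb1, the MHC class II chains that receive the resulting peptides, had edgeR log2 fold changes of 3.68, 3.11 and 3.54. Each had the 3 inside libraries above the 4 outside, as 5.65% of all tested genes did. Their order of libraries differed from that of the cathepsins, since Cd74 was lowest of the inside libraries in inside graft 1, where Ctsb, Ctsd, Ctsl and Ctsz were second highest of all 7. Without outside graft 3 or without outside graft 4, voomWithQualityWeights called 0 genes of the pathway lists. Elane and Prtn3, neutrophil serine proteases that cathepsin C activates, were detected only in inside grafts 1 and 3 (433 and 2573 reads of Elane) and were at 0 in inside graft 2 and outside the graft.

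Over the 7 libraries, the genes whose log2 CPM ran most like that of Cst7 among 8917 genes with a mean of at least 10 CPM were Mrpl20 (Pearson r = 0.994), Pdcd1 (0.987), Ephx1 (0.983), Cndp2 (0.981) and Siglecf (0.979). These values are descriptive, each over 7 libraries, and all genes of a library share its depth and group. Of the 5, Pdcd1, the gene of the receptor PD-1, had the largest log2 fold change, 1.79 (adjusted P = 0.116, edgeR), and Cndp2 the smallest, 0.16.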

How the data were processed

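Microglia RNA was amplified from 300 pg per library by a template-switching protocol and sequenced as single reads. Per the labels and the table's header, the authors aligned reads with STAR 2.7.2a to GRCm38.p6 and counted them with featureCounts 1.6.2 on GENCODE M21 exons, and the deposited values are these raw counts for each gene name. Multiply aligned reads were not counted and strand was ignored, so reads of antisense transcripts would fall on the gene. Totals were 18644807 to 25882122 counts per library. Since PCR copies carried no molecular identifiers, reads outnumber molecules, and the limit given for a count of 0 covers counting error only. Confidence intervals are those of the fits over libraries.

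From these counts, TMM-scaled CPM and, by the deposited gene length, TPM were derived, and tests run in DESeq2 1.42.0, limma 3.58.1 and edgeR 4.0.16 under R 4.3.3. The 15257 genes kept by filterByExpr were fitted over the whole table with glmQLFit (robust=FALSE, legacy=TRUE) and, as in the study, voomWithQualityWeights, and adjusted by Benjamini-Hochberg over all genes with a threshold of 0.05 (0.01, the study's, as an alternative). SEs are those implied by each test. Quality weights ran from 0.448 (outside graft 1) to 1.76 (outside graft 4). Members and lists were chosen with earlier results of these data known. Named were all 10 members, the genes past 0.05 and the most abundant gene of each pathway list, 5 genes most like Cst7 and markers that move with the groups. Ratios and shares over members were not tested. Alternatives were other scalings, filters, tests, thresholds and ratio definitions, each library left out and a replicate block. Further ones, legacy=FALSE, the length of 1 coding transcript and inside graft 2 alone, were chosen after seeing the data. Counts were simulated for the inside against outside graft comparison (15257 genes, 10 sets), with changes only in genes with a mean of at least 10 CPM. EdgeR recovered 63.7% of 2-fold and 98.4% of 4-fold changes with 8.5 false calls in each set, voomWithQualityWeights 61.2% and 97.1% with 6.8. No pair of libraries of 1 group agreed within counting noise (chi-square per degree of freedom at least 17.8).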

Additional observations from a re-analysis of the deposited data

How the results depend on the processing

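The edgeR count of the 10 genes past an adjusted P of 0.05 was 0, and it was 1 without a filter on low counts (Cst7), 1 with the replicate block (Cst7), 2 with DESeq2 and 0 with each library left out. For voomWithQualityWeights it was 0, and 1 without a filter, 1 where every library had to hold at least 10 counts, 5 with the replicate block (Cst7, Ctsz, Ctsd, Ctsl and Ctsb, with 265 genes or 1.78% called) and 0 to 1 with libraries left out. The block gave 43 genes in edgeR. Over all genes, deviations from the group mean correlated at r of -0.043, 0.090 and 0.067 in same-numbered libraries and at -0.117 to 0.064 in differently numbered ones. Cst7 was highest in library 2 and lowest in library 3 of both groups. The sources do not state pairs, so the numbers were not taken as pairs, and whether they are pairs was not settled. Over all genes, edgeR called 366 without a filter, 92 where every library had to hold at least 10 counts, 420 with DESeq2, 247 with legacy=FALSE, 75 with voomWithQualityWeights, 3 with inside graft 2 alone, 0 at the 0.01 threshold and 0 to 73 with libraries left out. It called 0 without inside graft 3 or outside graft 4 and 73 without inside graft 2. For voomWithQualityWeights these counts were 225, 211, 3 at 0.01 and 1 to 207, with 1 without outside graft 3 or outside graft 4. Of the pathway lists, edgeR called 0 genes, and 10 without a filter, 4 with at least 10 counts, 6 with DESeq2, 5 with legacy=FALSE, 4 with voomWithQualityWeights and 0 to 2 with libraries left out. VoomWithQualityWeights called 4, and 2 without a filter, 0 at 0.01 and 0 to 6 with libraries left out. Signs turned only for Ctss (edgeR, -0.025 to 0.247 with libraries left out, the lowest without inside graft 2) and Cst3 (voomWithQualityWeights, -0.181 to 0.028, above 0 without inside graft 1, inside graft 3 or outside graft 2, and 0.14 with inside graft 2 alone in edgeR). The protease-to-inhibitor difference was 0.316 to 0.413 with libraries left out, and -0.499 with geometric means, -2.02 over Cst7 and -0.245 over Cstb. The scalings moved the median of all genes by less than 0.1 (log2), and the causes of these shifts were not tested. EdgeR found 63.7% of simulated 2-fold changes, an average over changed genes with a mean of at least 10 CPM. This share was not worked out for the cathepsins, whose differences are smaller than 2-fold.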
